A study of Homo sapiens with 9 samples.

Results

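Well expressed long noncoding RNAs of VCaP cells were described in 9 RNA-seq libraries. The members were the genes whose deposited biotype was lincRNA or antisense and whose mean level in the 3 siCtrl libraries was at least 5 CPM (the count of a gene divided by the total count of its library, scaled so that each library sums to 1000000). This rule gave 229 genes of the 13212 with either biotype and of 58735 genes in all, with 115 lincRNAs and 114 antisense RNAs. Since the siCtrl level chose the members, levels are given as a description.

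VCaP is an established prostate cancer cell line, and all libraries came from cells grown in medium with serum and 2 nM DHT, an androgen. The siCtrl libraries came from cells with a control siRNA, which the labels call wild type and do not name further. The siCDO1A and siCDO1C libraries came from cells given 1 of 2 siRNAs against CDO1, the enzyme that oxidizes cysteine on the way to taurine, which the labels call CDO1 knockdown. Each condition had 3 libraries, which the labels number as biological replicates and, with the same numbers, as batches. The cultures share 1 cell line, so that the p-values describe the spread between cultures of VCaP cells.

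A lincRNA is transcribed from a stretch between protein-coding genes, and an antisense RNA from the strand opposite to one. Neither is translated as a rule. Some build nuclear bodies, some carry small nucleolar RNAs (snoRNAs) or microRNAs inside their introns and exons, and others are known mainly from their position beside a coding gene. In prostate cancer, a number of these RNAs follow androgen signalling or tumour stage, and PCA3 is measured in urine for diagnosis.

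Total counts were between 12061295 and 16073698 per library, at which 3 counts equal 0.187 to 0.249 CPM. CDO1 itself was at 14.3, 14.1 and 13.7 CPM in the siCtrl libraries, at 3.26, 2.03 and 2.17 CPM with siCDO1A and at 1.1, 2.79 and 1.16 CPM with siCDO1C. The 10 luminal and VCaP markers summed to between 6314 and 7466 CPM over the libraries, and leukocyte markers to at most 0.663 CPM. The 4 fibroblast markers summed to between 14 and 22.6 CPM, mostly LUM, with COL1A2 at 0 in every library. The 3 endothelial markers summed to between 0.319 and 2.68 CPM, with CDH5 at 0 in every library, and the 3 basal markers to between 1.18 and 3.38 CPM. In these lists KRT14 (1.14, adjusted p = 0.0101) and COL1A1 (0.76, adjusted p = 0.0353) rose with siCDO1A and LUM fell with siCDO1C (-0.46, adjusted p = 0.0498), and their part in the results was not tested. All 229 members passed the filter on low counts, which kept 15555 genes for testing.

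The members held little of the RNA counted, and a handful of them held much of that little. They took 0.72% ± 0.0176 (SD, n = 3) of all counts in siCtrl cells, 0.725% ± 0.024 (n = 3) with siCDO1A and 0.729% ± 0.0184 (n = 3) with siCDO1C, which differed by less than the SD of any group. NEAT1, COLCA1, NORAD and MALAT1 together made up from 36.7% to 42.3% of the members' counts in each library. At the other end, 114 members lay between 5 and 10 CPM, and 10 lay over 100 CPM. The lowest count of a member in any library was 24, and the highest was 17612.

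NEAT1 (ENSG00000245532, chromosome 11, 65422774 to 65445540, plus strand, GRCh38), the RNA scaffold of paraspeckles, was the most abundant. It had 809, 878 and 822 CPM in the siCtrl libraries, 947, 1191 and 947 CPM with siCDO1A and 1056, 1094 and 1023 CPM with siCDO1C. Each of the 6 siRNA libraries exceeded the highest siCtrl library. COLCA1, an antisense RNA beside COLCA2, followed with 687 ± 51.5 CPM in siCtrl cells (SD, n = 3), and NORAD, which binds PUMILIO proteins, with 610 ± 31.3 CPM (n = 3). MALAT1, a nuclear speckle RNA whose mature end carries no standard poly(A) tail, had 620 ± 68 CPM (n = 3). The intervals of these last 3 genes overlapped. The other members over 100 CPM were FGD5-AS1 (378 ± 12.9 CPM), PCAT14 (315 ± 4.54), AC092535.4 (209 ± 7.66), LINC00665 (138 ± 6.21), EBLN3P (136 ± 9.87) and SNHG8 (124 ± 9.27), each in siCtrl cells with n = 3.

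**Figure D1:**
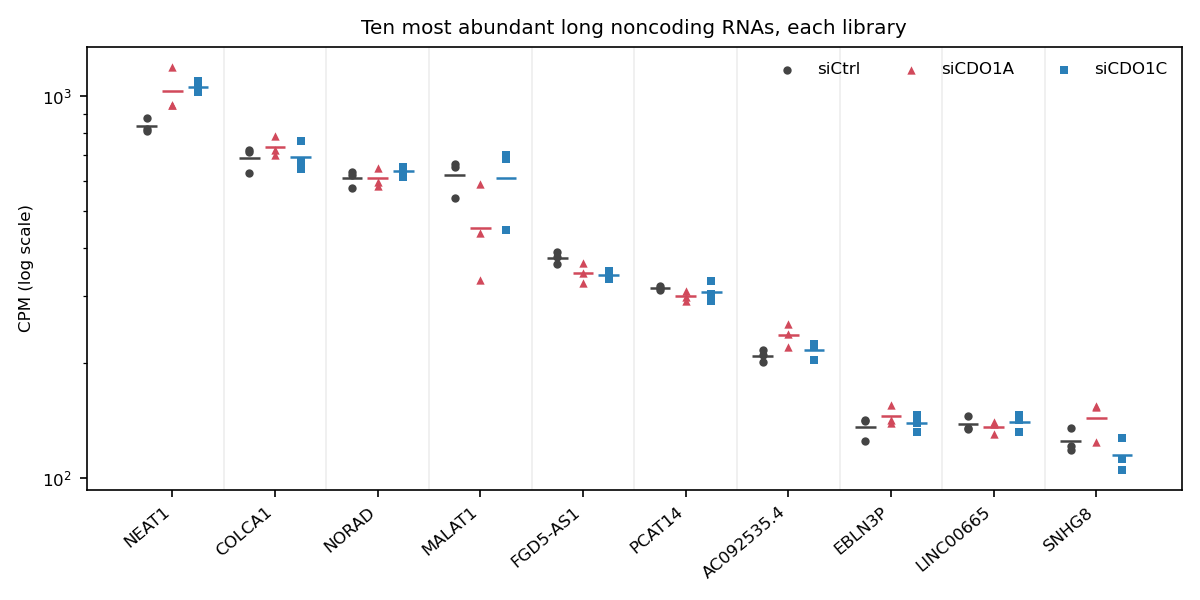
CPM (log axis) of the 10 most abundant members in each of the 9 libraries. Points are libraries, coloured and shaped by siRNA, and short lines are group means. NEAT1 is the only one of the 10 whose 6 siRNA libraries all lie above the siCtrl libraries, and MALAT1 is the most widely spread, from 329 to 701 CPM.

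Per kilobase of annotated gene length, a different order appeared. AC092535.4, an antisense RNA of 397 bases, stood first with 526 ± 19.3 CPM per kb in siCtrl cells (SD, n = 3), followed by the snoRNA host SNHG8 with 135 ± 10 and NORAD with 114 ± 5.86. COLCA1 (78.7 ± 5.9), FGD5-AS1 (73.6 ± 2.51), MALAT1 (70.2 ± 7.7) and PCAT14 (64.1 ± 0.925) came next, and the SDs of MALAT1 overlapped those of the other 3. NEAT1, with 22767 bases, ranked 8 with 36.7 ± 1.61 CPM per kb. Its short and long forms are not separated by the counts, so that dividing by the full length can understate its level. The gene body of AC092535.4 lies wholly opposite SPON2, a secreted matrix protein gene at 2610 CPM in siCtrl cells. The strand setting of the counting is not given, and without it reads of an antisense gene and of its partner cannot be told apart, so that levels of overlapping members are uncertain.

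Just inside the threshold stood LINC00920, with 5.001 CPM in siCtrl cells, 3.83 with siCDO1A and 3.41 with siCDO1C, and AC009133.1, with 5.059, 5.34 and 5.98 CPM. Just outside it were PPP1R26-AS1, with 4.979, 5.94 and 5.48 CPM, and FBXL19-AS1, with 4.965, 4.51 and 3.76 CPM.

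The first question was which of these RNAs changed with each siRNA. With siCDO1A, 19 members rose and 20 fell against siCtrl, 39 of 229 or 17%, where 14.9% of all genes tested passed (adjusted p at most 0.05 by the quasi-likelihood test of edgeR, Benjamini-Hochberg over all genes). By direction these were 8.3% and 8.73% of members, beside 7.37% and 7.48% of all genes. With siCDO1C, 6 rose and 8 fell, 14 of 229 or 6.11%, against 4.77% of all genes, and by direction 2.62% and 3.49% beside 2.27% and 2.5%. Both comparisons use the same siCtrl libraries. In RNA of whole cultures, less RNA per cell and fewer cells with that RNA cannot be told apart.

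The changes were small. With siCDO1A, the log2 fold changes ran from -0.92 to 1.24 and 145 members (63.3%) stayed within 0.25 of 0, compared with 70.1% of all genes tested. The range with siCDO1C was -1.02 to 0.70, and 154 members (67.2%) stayed within 0.25 of 0, compared with 72.5% of all genes. The median member was at 0.009 with siCDO1A, near the 0.010 of all genes, and at -0.072 with siCDO1C, where all genes were at -0.000. The rule itself uses the siCtrl level. When the mean over all 9 libraries chose the members instead, 237 genes qualified, the medians became 0.043 and -0.017, and the splits of rises and falls became 26 to 15 and 9 to 4.

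Among members, lincRNAs and antisense RNAs were called at similar counts with siCDO1A, 21 of 115 and 18 of 114, and at 9 and 5 with siCDO1C. The difference between the classes was not tested. Members with libraries that did not overlap those of siCtrl numbered 32 above and 46 below with siCDO1A. These were 14% and 20.1% of members, beside 13.6% and 17.2% of all genes. With siCDO1C they numbered 23 above and 53 below, 10% and 23.1% of members, beside 11.8% and 12.4% of all genes. In 14 members all 6 siRNA libraries lay above the 3 siCtrl libraries and in 23 below, 6.11% and 10% of members, beside 6.86% and 7.95% of all genes. The siCtrl libraries in these counts also chose the members, which favours members with high siCtrl values. A larger share below siCtrl is therefore not read as a result. Precision followed the level. The median SE of the log2 fold change with siCDO1A was 0.157 for members between 5 and 10 CPM and 0.0588 for those over 100 CPM. The median coefficient of variation over members was 8.02% in siCtrl cells, 9.19% with siCDO1A and 11.5% with siCDO1C.

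**Figure D2:**
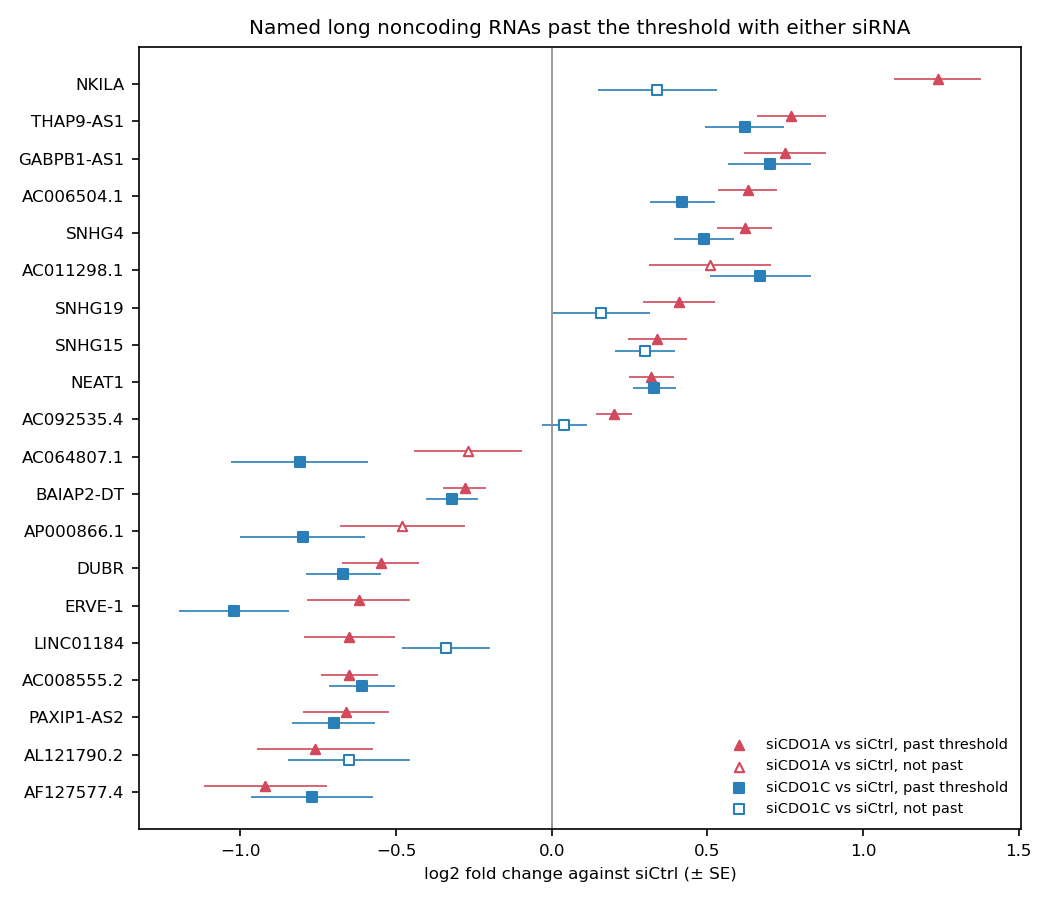
Log2 fold changes against siCtrl with standard errors for 20 of the 42 members past the threshold with either siRNA, those that the naming rule chose, ordered by the siCDO1A value. Triangles are siCDO1A and squares siCDO1C, filled where adjusted p is at most 0.05. NKILA (1.24 with siCDO1A) lies highest and ERVE-1 (-1.02 with siCDO1C) lowest.

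In all, 11 of 229 members (4.8%) passed the threshold with both siRNAs in the same direction, where 3.62% of all genes did, and their 6 siRNA libraries all lay on 1 side of the 3 siCtrl libraries. NEAT1, SNHG4, AC006504.1, GABPB1-AS1 and THAP9-AS1 rose (2.18% of members, beside 1.9% of all genes), and AF127577.4, PAXIP1-AS2, AC008555.2, ERVE-1, DUBR and BAIAP2-DT fell (2.62%, beside 1.72%). With members chosen by the mean over 9 libraries, 8 rose and 4 fell. The calls of 3 of the 11, PAXIP1-AS2, AC008555.2 and DUBR, held with both siRNAs whichever library was left out.

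THAP9-AS1 (ENSG00000251022, chromosome 4, 82893009 to 82900960, minus strand) lies opposite THAP9, a gene derived from a DNA transposon. It was at 13.7, 14.9 and 11.8 CPM in siCtrl cells, at 20.8, 21.8 and 24.7 CPM with siCDO1A and at 17.9, 22.1 and 22.2 CPM with siCDO1C. It rose 1.7-fold with siCDO1A (log2 fold change 0.77, SE 0.111, adjusted p = 6.8e-05) and 1.54-fold with siCDO1C (0.62, SE 0.128, adjusted p = 0.0107). Without siCtrl replicate 1 or 3 the siCDO1C value was not past the threshold (adjusted p = 0.0506 and 0.0917). THAP9, whose start is 276 bases away on the other strand, was at 0.00 and 0.11 on the log2 scale (adjusted p = 0.992 and 0.74).

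GABPB1-AS1 (ENSG00000244879, chromosome 15, 50354959 to 50372202, plus strand) starts 449 bases from GABPB1, a subunit gene of the transcription factor GABP. Its siCtrl libraries held 10.4, 10.8 and 8.96 CPM, its siCDO1A libraries 13.9, 19.5 and 16.3 CPM and its siCDO1C libraries 17.3, 14.1 and 17.7 CPM. The rise was 1.68-fold with siCDO1A (0.75, SE 0.133, adjusted p = 5.8e-04) and 1.63-fold with siCDO1C (0.70, SE 0.133, adjusted p = 0.00603, and 0.0624 without siCtrl replicate 3). GABPB1 was at 0.07 and 0.08 on the same scale (adjusted p = 0.683 and 0.738).

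SNHG4 (ENSG00000281398, chromosome 5, 139274102 to 139284899, plus strand) is a host gene of snoRNAs, the guides for chemical marks on ribosomal RNA. It had 32.7, 38.4 and 30.9 CPM in siCtrl cells, 48.4, 50.8 and 54.9 CPM with siCDO1A and 48.6, 45.8 and 48.7 CPM with siCDO1C. The log2 fold changes were 0.62 (SE 0.088, adjusted p = 5.5e-05) and 0.49 (SE 0.0957, adjusted p = 0.00789), and the latter was not past the threshold without siCtrl replicate 1 (adjusted p = 0.0603) or 3 (0.0743). Its body lies opposite SIL1, an ER chaperone factor gene, whose log2 fold changes were -0.12 and -0.16 (adjusted p = 0.464 and 0.482).

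AC006504.1 (ENSG00000261770, chromosome 19, 27757184 to 27760849, minus strand), of no known role, varied least of these in siCtrl cells, with 22.1, 22.1 and 21.9 CPM. Its siCDO1A libraries were at 29.1, 35.4 and 36.5 CPM and its siCDO1C libraries at 33.3, 28.9 and 26.4 CPM. It rose by 0.63 on the log2 scale with siCDO1A (SE 0.0953, adjusted p = 1.1e-04) and by 0.42 with siCDO1C (SE 0.104, adjusted p = 0.0315). The siCDO1C call was lost without any 1 siCtrl replicate or without siCDO1C replicate 1, at adjusted p from 0.115 to 0.146.

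NEAT1 rose 1.24-fold with siCDO1A (log2 fold change 0.32, SE 0.0717, adjusted p = 0.00575) and 1.26-fold with siCDO1C (0.33, SE 0.0696, adjusted p = 0.0114). The call was lost with siCDO1A without siCDO1A replicate 3 (adjusted p = 0.12), and without siCDO1A replicate 2 the value was 0.19 (adjusted p = 0.0389). It was also lost with siCDO1C without siCtrl replicate 1 (0.105) or 3 (0.0922). NEAT1 has a short and a long form that share a start, and the counts per gene do not separate them. Which form of NEAT1 changed was not tested.

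The deepest fall with siCDO1A was that of AF127577.4 (ENSG00000235609, chromosome 21, 14818843 to 15014430, minus strand), a lincRNA at 6.68, 7.09 and 6.66 CPM in siCtrl cells. It was at 2.2, 3.99 and 4.27 CPM with siCDO1A and at 4.75, 2.79 and 4.39 CPM with siCDO1C. Every siRNA library thus lay below 5 CPM, and it is a member only through its siCtrl level. Its log2 fold changes were -0.92 (SE 0.198, adjusted p = 0.00315) and -0.77 (SE 0.196, adjusted p = 0.0359), and the siCDO1C call was lost without any 1 siCtrl replicate, at adjusted p from 0.113 to 0.146.

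ERVE-1 (ENSG00000267259, chromosome 17, 28232590 to 28235281, minus strand), a transcript of an endogenous retrovirus, fell the most with siCDO1C. It was at 6.13, 5.97 and 6.28 CPM in siCtrl cells, at 3.75, 3.92 and 4.13 CPM with siCDO1A and at 3.16, 2.94 and 2.98 CPM with siCDO1C, with no overlap between the 3 groups. Every siRNA library lay below 5 CPM, so that ERVE-1 too is a member only through its siCtrl level. The falls were 1.54-fold (log2 fold change -0.62, SE 0.165, adjusted p = 0.0146) and 2.02-fold (-1.02, SE 0.177, adjusted p = 0.00367), and the difference between the siRNAs was not past the threshold (-0.39, SE 0.207, adjusted p = 0.718). Without siCDO1A replicate 1 or 2, the siCDO1A value had an adjusted p of 0.0538 or 0.052. Retroviral sequences occur in many copies, and how reads with several matches were counted is not given.

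PAXIP1-AS2 (ENSG00000214106, chromosome 7, 154928485 to 154952188, plus strand) lies opposite PAXIP1, which encodes a protein of the DNA damage response. Its levels were 14.9, 13.9 and 14.4 CPM in siCtrl cells, 7.98, 7.71 and 11.2 CPM with siCDO1A and 9.22, 7.48 and 9.95 CPM with siCDO1C. Both falls passed the threshold (-0.66, SE 0.138, adjusted p = 0.00258, and -0.70, SE 0.133, adjusted p = 0.00638), while PAXIP1 was at -0.04 and 0.04 (adjusted p = 0.736 and 0.871). PAXIP1-AS1, which starts 364 bases from PAXIP1, was on the other side of 0 with siCDO1A, from 8.94 to 12 CPM on average (0.45, SE 0.12, adjusted p = 0.0154), and at 0.20 with siCDO1C (adjusted p = 0.518). That call was lost without siCtrl replicate 1 or 2 or siCDO1A replicate 2, at adjusted p from 0.0561 to 0.062.

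AC008555.2 (ENSG00000269086, chromosome 19, 34837889 to 34855304, plus strand) was at 26.6, 26.7 and 27.7 CPM in siCtrl cells, at 15.9, 17.4 and 17.8 CPM with siCDO1A and at 20.2, 16.5 and 16.6 CPM with siCDO1C. The log2 fold changes of this lincRNA of no known role were -0.65 (SE 0.0928, adjusted p = 6.1e-05) and -0.61 (SE 0.107, adjusted p = 0.00409). DUBR (ENSG00000243701, chromosome 3, 107240692 to 107326964, plus strand), described in muscle cell differentiation, went from 14.3, 14.8 and 13.6 CPM in siCtrl cells to 8.55, 9.06 and 11 CPM with siCDO1A and 9.01, 8.99 and 8.87 CPM with siCDO1C. The corresponding values were -0.55 (SE 0.125, adjusted p = 0.00455) and -0.67 (SE 0.121, adjusted p = 0.00471).

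BAIAP2-DT (ENSG00000226137, chromosome 17, 81029130 to 81034881, minus strand), transcribed away from BAIAP2 with starts 241 bases apart, had the smallest change of the 11. Its siCtrl libraries were at 69.9, 75 and 76.5 CPM, its siCDO1A libraries at 62, 60.7 and 57.6 CPM and its siCDO1C libraries at 62.9, 53.5 and 61.3 CPM. It fell by 0.28 (SE 0.0686, adjusted p = 0.00813) and by 0.32 (SE 0.0846, adjusted p = 0.0415) on the log2 scale. With the batch number as a block the siCDO1C value was not past the threshold (adjusted p = 0.0617), nor was it without siCDO1C replicate 1 or 3 or any 1 siCtrl replicate, at adjusted p from 0.0662 to 0.191. BAIAP2, which encodes an actin and membrane scaffold, was at 0.12 and 0.09 (adjusted p = 0.198 and 0.552).

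**Figure D3:**
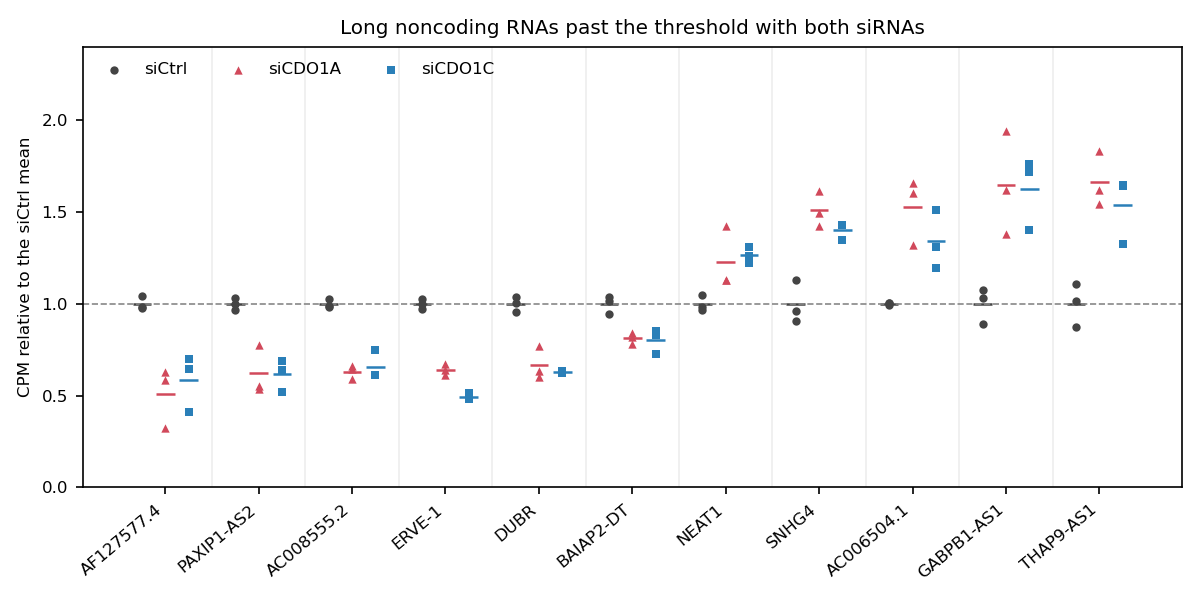
Level of each of the 11 members past the threshold with both siRNAs, as CPM divided by the siCtrl mean of that gene (linear axis from 0). Points are libraries and short lines group means. In all 11, the siCDO1A and siCDO1C points lie on 1 side of the siCtrl points.

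The second question was whether the siRNAs differed from each other. This comparison leaves out the siCtrl libraries by which the members were chosen. A single member, NKILA, passed the threshold between siCDO1C and siCDO1A, 0.437% of members, where 0.444% of all genes passed, and 26 members had an unadjusted p under 0.05 (11.4%, against 7.65% of all genes). DESeq2 also called 1 member. By direction, 0.244% of all genes were called higher with siCDO1C and 0.199% lower. The libraries of the 2 siRNAs did not overlap in 13 members that were higher and 27 that were lower with siCDO1C, 5.68% and 11.8% of members, beside 7.19% and 5.54% of all genes. The median log2 difference of siCDO1C from siCDO1A was -0.056 over members and -0.005 over all genes.

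NKILA (ENSG00000278709, chromosome 20, 57710183 to 57712780, plus strand) is an RNA that binds the NF-kappaB complex. It was at 5.1, 6.45 and 5.35 CPM in siCtrl cells, at 13.4, 12 and 14 CPM with siCDO1A and at 5.85, 6.49 and 9.2 CPM with siCDO1C. The siCDO1A libraries lay above all others. Its rise with siCDO1A was the largest of any member, 2.37-fold (log2 fold change 1.24, SE 0.139, adjusted p = 3.2e-06), whereas with siCDO1C it was at 0.34 (SE 0.191, adjusted p = 0.373). The difference between the siRNAs was -0.90 (SE 0.165, adjusted p = 0.0159), and it was not past the threshold without siCDO1C replicate 1 or any 1 siCDO1A replicate, at adjusted p from 0.0712 to 0.157.

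Of the NKILA body, 52.1% lies opposite PMEPA1, an androgen-induced membrane protein gene. PMEPA1 was at 547, 528 and 557 CPM in siCtrl cells, 801, 771 and 813 CPM with siCDO1A and 622, 624 and 651 CPM with siCDO1C. Its log2 fold changes were 0.56 with siCDO1A (SE 0.0481, adjusted p = 8.8e-08), 0.21 with siCDO1C (SE 0.0665, adjusted p = 0.0824) and -0.35 between the siRNAs (SE 0.0754, adjusted p = 0.0496). PMEPA1 was thus called in the same 2 of 3 comparisons as NKILA. Whether reads of PMEPA1 were counted for NKILA was not tested.

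MALAT1 had 665, 653 and 542 CPM in siCtrl cells, 438, 589 and 329 CPM with siCDO1A and 445, 683 and 701 CPM with siCDO1C. In each batch number the siCDO1A library was the lowest of the 3. The siCDO1A libraries nonetheless overlapped those of siCtrl, and its log2 fold change of -0.44 (SE 0.254) had an adjusted p of 0.366. With the batch number as a block the value was -0.47 and the adjusted p was 7.5e-04. Without siCDO1A replicate 2 and without the block it was called too (-0.68, adjusted p = 0.00804), and without siCDO1A replicate 3 the value was -0.25 (adjusted p = 0.491). With siCDO1C it was at -0.03 (SE 0.171, adjusted p = 0.956).

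**Figure D4:**
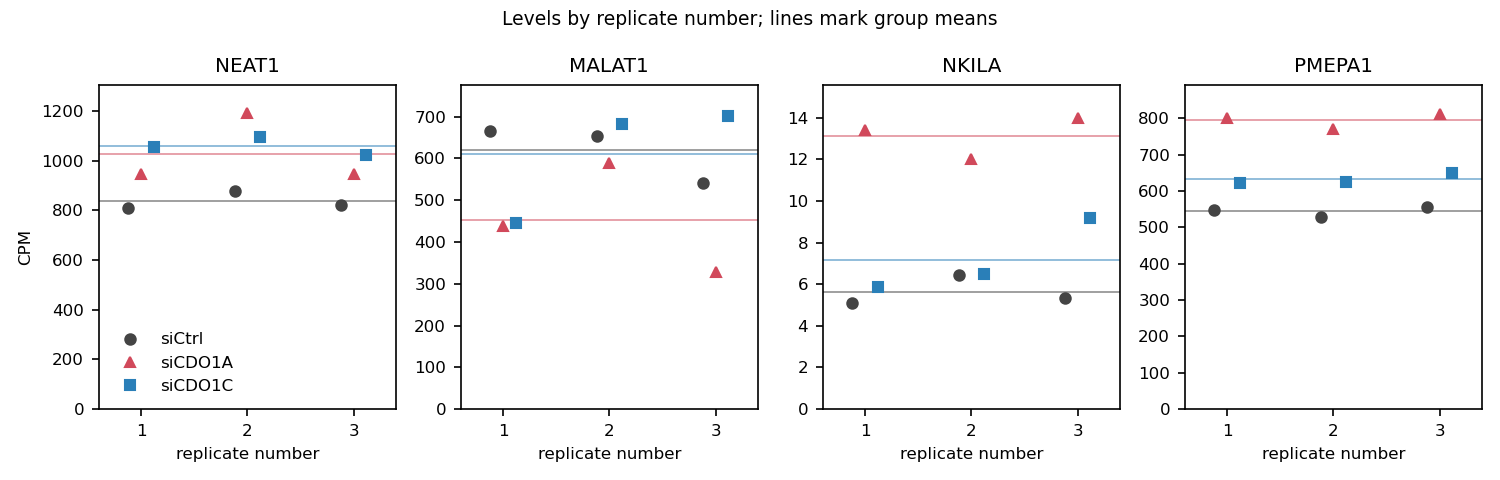
CPM of NEAT1, MALAT1, NKILA and the coding gene PMEPA1 by replicate number (linear axes from 0). Points are libraries, and horizontal lines are group means. MALAT1 with siCDO1A runs from 329 to 589 CPM, and NKILA and PMEPA1 are highest in the 3 siCDO1A libraries.

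The other changes belonged to 1 siRNA by the threshold, which does not show that the siRNAs differed. With siCDO1A alone, 14 members rose, by 0.20 to 1.24 on the log2 scale, and had values of -0.07 to 0.45 with siCDO1C. Another 14 fell with siCDO1A, between -0.76 and -0.25, and had values of -0.66 to 0.03 with siCDO1C. Those that fell most were AL121790.2 (5.92 ± 0.469 CPM in siCtrl cells, 3.42 ± 0.674 with siCDO1A, n = 3 each, log2 fold change -0.76, SE 0.186, adjusted p = 0.00833) and LINC01184 (10.8 ± 0.28 and 6.71 ± 1.35 CPM, -0.65, SE 0.147, adjusted p = 0.00461). AL121790.2 lay below 5 CPM on average with siCDO1A, and the siCtrl level it fell from is also the level that chose it. LINC01184 starts 594 bases from SLC12A2, a chloride cotransporter gene. Without siCDO1C replicate 1, AL121790.2 also passed with siCDO1C (-0.86, adjusted p = 0.0488), as did LINC01184 without siCDO1C replicate 2 (-0.44, adjusted p = 0.05).

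With siCDO1C alone, AC011298.1 rose and AP000866.1 and AC064807.1 fell. AC011298.1 had 6.05, 4.94 and 6.47 CPM in siCtrl cells, 6.51, 11.4 and 6.63 CPM with siCDO1A and 10.7, 8.38 and 8.79 CPM with siCDO1C (log2 fold change 0.67, SE 0.162, adjusted p = 0.0286). AP000866.1 went from 5.53 ± 0.963 to 3.17 ± 0.227 CPM (-0.80, SE 0.2, adjusted p = 0.0344, n = 3 each), and AC064807.1 from 5.31 ± 0.582 to 3.02 ± 0.823 CPM (-0.81, SE 0.219, adjusted p = 0.0471, n = 3 each). AP000866.1 and AC064807.1 thus lay below 5 CPM on average with siCDO1C, and the siCtrl levels they fell from are also those that chose them. Each of these 3 calls was lost without siCDO1C replicate 1 and without at least 2 of the siCtrl replicates in turn, at adjusted p from 0.0749 to 0.211. Without siCDO1A replicate 3, AC011298.1 (0.65, adjusted p = 0.0094) and AP000866.1 (-0.67, adjusted p = 0.0218) passed with siCDO1A too.

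Noncoding RNAs described in prostate cancer were considered next, from a list of 44 symbols of which 38 were in the table and 23 were tested. Of these, 13 were members, and none of the 13 passed the threshold in any comparison by edgeR or by DESeq2. By edgeR, 14.9% of all genes passed with siCDO1A, 4.77% with siCDO1C and 0.444% between the siRNAs. So few genes cannot show that these RNAs were steadier than others. Of the 13, those with an unadjusted p under 0.05 numbered 1 with siCDO1A, 4 with siCDO1C and 1 between the siRNAs, where 27.9%, 18.6% and 7.65% of all genes were under it. Log2 fold changes ran from -0.38 to 0.38 with siCDO1A and from -0.37 to 0.45 with siCDO1C. Of the other tested symbols, CTBP1-AS rose with siCDO1A and LINC00963 fell with both siRNAs (-0.33 and -0.53, edgeR adjusted p = 0.00913 and 0.00327), the former not with the batch block (adjusted p = 0.0578). LINC00963 and CBR3-AS1 also reached 5 CPM in siCtrl cells (41.3 and 15.7 CPM), but their deposited biotype is neither lincRNA nor antisense.

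PCAT14, a transcript from an endogenous retrovirus that marks prostate tumours, was the most abundant of them at 319, 315 and 310 CPM in siCtrl cells, 290, 298 and 309 CPM with siCDO1A and 303, 290 and 327 CPM with siCDO1C. Its log2 fold changes were -0.06 (SE 0.0505, adjusted p = 0.506) and -0.04 (SE 0.0704, adjusted p = 0.817). This was the most tightly measured of the 13 members, with a coefficient of variation of 1.44% in siCtrl cells.

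PCAT1, a transcript of the region that also holds MYC, was nearest to the threshold, at 10.5, 9.88 and 9.64 CPM in siCtrl cells, 13.5, 10.2 and 11.8 CPM with siCDO1A and 14.7, 12.2 and 14.3 CPM with siCDO1C. The siCDO1C libraries lay above those of siCtrl (log2 fold change 0.45, SE 0.127, adjusted p = 0.055). In 1 fit of all 9 libraries its adjusted p was 0.0412, and without siCDO1C replicate 2 it was 0.00591. With siCDO1A it was at 0.26 (SE 0.129, adjusted p = 0.203).

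DRAIC, described as an inhibitor of migration and invasion, was at 32.4, 32.9 and 31 CPM in siCtrl cells, 28.5, 29.8 and 30.4 CPM with siCDO1A and 26.3, 26.6 and 27.2 CPM with siCDO1C. The 3 groups did not overlap, yet its log2 fold changes of -0.10 (SE 0.0822) and -0.27 (SE 0.0885) had adjusted p-values of 0.472 and 0.1, and 0.0458 for the latter without siCDO1C replicate 2. PART1, an androgen-regulated transcript, had 32.6 ± 2.61 CPM in siCtrl cells, 28.5 ± 2.32 with siCDO1A and 27.2 ± 3.29 with siCDO1C (n = 3 each), and its values of -0.18 and -0.26 had adjusted p-values of 0.204 and 0.195, with 0.00828 for siCDO1C without siCDO1C replicate 2. TRPM2-AS, antisense to the calcium channel gene TRPM2, lay lower in every siRNA library, between 6.76 and 8.74 CPM against 9.8 to 11.8 CPM (-0.38 and -0.37, adjusted p = 0.0756 and 0.173).

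HOTTIP and HOXA11-AS, both from the HOXA cluster, were at 45.4 ± 2.32 and 31.1 ± 1.11 CPM in siCtrl cells (n = 3), with log2 fold changes between -0.02 and 0.19 in the comparisons with siCtrl. PVT1, which neighbours MYC, had 29.6 ± 5.08 CPM and log2 fold changes of 0.20 and 0.02, and PRKAG2-AS1 6.17 ± 2.1 CPM with 0.38 and -0.06. Both had an adjusted p under the threshold with siCDO1A without siCtrl replicate 2 (0.0456 and 0.0329), and above it with all libraries (0.211 and 0.215). The other members of the list, PCAT7, PCAT19, TMPO-AS1 and HCG11, lay between 7.88 and 16.4 CPM on average in siCtrl cells and within 0.27 of 0 on the log2 scale in both comparisons with siCtrl. Some well known names stayed below the threshold of the rule, with mean siCtrl levels of 0.909 CPM for PCA3, 1.76 for SCHLAP1 and 0.0207 for PCGEM1.

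**Figure D5:**
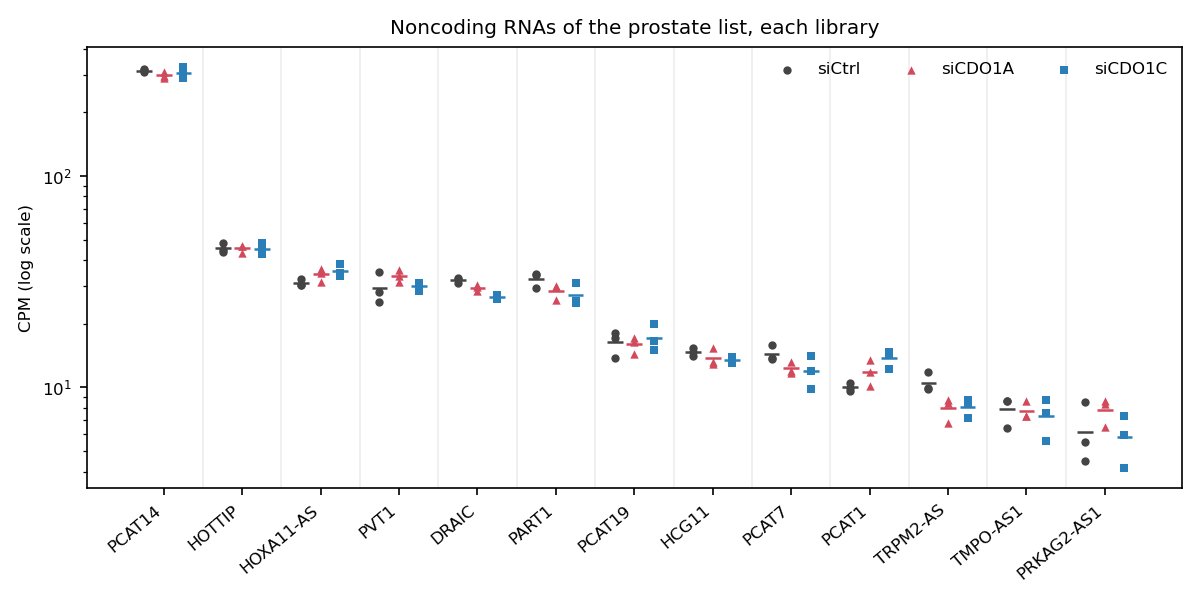
CPM (log axis) of the 13 members of the prostate list in each of the 9 libraries, ordered by mean level. Points are libraries and short lines group means. PCAT14 stands near 300 CPM with every siRNA, and the others lie between 4.15 and 48.1 CPM. None passed the threshold with siCDO1A, with siCDO1C or between the siRNAs, where 14.9%, 4.77% and 0.444% of all genes did.

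Host genes of snoRNAs formed the group with most rises among the lists of noncoding RNAs. Of its 8 members, 3 rose with siCDO1A, namely SNHG4, SNHG15 and SNHG19, 1 rose with siCDO1C, namely SNHG4, and none fell, where 7.37% and 2.27% of all genes rose. The medians were 0.26 and 0.07 over the 8 and 0.010 and -0.000 over all genes. SNHG15 was at 32.1, 31.9 and 33.7 CPM in siCtrl cells, 42.7, 45.3 and 34.7 CPM with siCDO1A and 37.6, 45.2 and 37.8 CPM with siCDO1C. Its values were 0.34 (SE 0.0939, adjusted p = 0.0165) and 0.30 (SE 0.096, adjusted p = 0.0936), and the siCDO1A call was lost without siCtrl replicate 1 or 2 or siCDO1A replicate 1 or 2, at adjusted p from 0.064 to 0.126.

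SNHG19 went from 11.6 ± 1.28 to 15.3 ± 0.769 CPM with siCDO1A (0.41, SE 0.116, adjusted p = 0.0197, n = 3 each), a call lost without siCtrl replicate 2 or 3 or siCDO1A replicate 2, at adjusted p from 0.0574 to 0.106. SNHG8 had 118, 121 and 135 CPM in siCtrl cells, 154, 153 and 124 CPM with siCDO1A and 112, 127 and 105 CPM with siCDO1C. With all libraries it missed the threshold in the 3 comparisons (adjusted p = 0.056, 0.495 and 0.22). It passed with siCDO1A without siCtrl replicate 3 (0.28, adjusted p = 0.0228) or siCDO1A replicate 3 (0.32, adjusted p = 4.0e-05). Without siCDO1C replicate 2 it passed with siCDO1C (-0.20, adjusted p = 0.0334) and between the siRNAs (-0.42, adjusted p = 0.0059), and with the batch number as a block its difference between the siRNAs of -0.34 had an adjusted p of 0.0399. SNHG7, SNHG12, ZFAS1 and EPB41L4A-AS1 ran from 0.01 to 0.29 with siCDO1A and from -0.18 to 0.35 with siCDO1C, none past the threshold with all libraries. EPB41L4A-AS1 passed with siCDO1C without siCDO1C replicate 2 (-0.26, adjusted p = 0.0387). Over the whole list of host genes of any biotype, 8 of 21 tested rose with siCDO1A, 3 rose with siCDO1C and none fell, by edgeR, beside the same 7.37% and 2.27% of all genes. Among the mRNAs of 16 proteins that bind or assemble snoRNAs, 2 rose with siCDO1A (NOP56 and RUVBL2), 1 with siCDO1C (RUVBL2) and none fell, beside 7.37% and 2.27% of all genes that rose.

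Mature microRNAs lie inside 8 members, with 27 found by RefSeq coordinates of GRCh38. Among the 27 found, 2 seeds (bases 2 to 8, the part that pairs with targets) occur in 2 microRNAs each. Of the MIR374A hairpin in FTX only hsa-miR-374a-3p was found, so that the count and the shared seeds may be incomplete. The poly(A) libraries count the host transcripts and not the mature microRNAs. GABPB1-AS1 was the only one of the 8 hosts past the threshold, and it was so with both siRNAs, where 14.9% and 4.77% of all genes passed. The other 7 ran from -0.10 to 0.26 with siCDO1A and from -0.26 to 0.30 with siCDO1C, and MIR99AHG was the most abundant of them, at 63.2 ± 4.52 CPM in siCtrl cells (n = 3). The mature sequences of GABPB1-AS1 are shown for the host that changed and those with a shared seed for the hosts MIR99AHG, MIR4458HG and DLEU2, with the seed in capitals:
hsa-miR-4712-5p in GABPB1-AS1: uCCAGUACaggucucucauuuc
hsa-miR-4712-3p in GABPB1-AS1: aAUGAGAGaccuguacuguau
hsa-let-7c-5p in MIR99AHG: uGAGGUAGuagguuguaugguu
hsa-miR-4458 in MIR4458HG: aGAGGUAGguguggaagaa
hsa-miR-15a-5p in DLEU2: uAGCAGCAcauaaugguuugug
hsa-miR-16-5p in DLEU2: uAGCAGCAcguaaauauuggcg

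The let-7c-5p and miR-4458 seeds are identical although their hosts lie on chromosomes 21 and 5, while the 2 microRNAs in DLEU2 belong to 1 cluster on chromosome 13. MIR4458HG was at 12.4 ± 2.38 CPM in siCtrl cells and DLEU2 at 7.81 ± 1.17 CPM (n = 3 each), with log2 fold changes of 0.10 and -0.03 with siCDO1A (adjusted p = 0.681 and 0.905) and of -0.08 and 0.10 with siCDO1C (adjusted p = 0.867 and 0.798). FTX, an X-linked host of a further microRNA cluster, had 18.8, 19.5 and 20.1 CPM in siCtrl cells, 19.5, 21.2 and 19.9 CPM with siCDO1A and 24.2, 25 and 22.9 CPM with siCDO1C. Its siCDO1C libraries lay above all others, at a log2 fold change of 0.30 (SE 0.0988, adjusted p = 0.101).

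Members beside coding genes were compared with their neighbours. Of the antisense members, 106 overlapped a protein-coding gene on the other strand, and 93 pairs were tested. The log2 fold changes of the pair had a Pearson correlation across pairs of 0.254 with siCDO1A, 0.0903 with siCDO1C and 0.00647 between the siRNAs, a description over genes of the same libraries. Among the 93 pairs, 14 members and 20 coding genes were called with siCDO1A, where 14.9% of all genes were. With siCDO1C these were 4 and 5, beside 4.77%, and between the siRNAs 1 and 1, beside 0.444%. Both genes were called in 5 pairs with siCDO1A, 3 in the same and 2 in opposite directions, in none with siCDO1C by edgeR and in 1 between the siRNAs. Whether pairs with both genes called exceeded coincidence was not tested. In 23 of the 93 pairs the member had more CPM than its coding partner.

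The 3 pairs that moved together with siCDO1A were NKILA with PMEPA1, AC092535.4 with SPON2 and B3GALT5-AS1 with B3GALT5, a glycosyltransferase gene. AC092535.4 rose from 201, 210 and 216 CPM to 238, 253 and 220 CPM (0.20, SE 0.0592, adjusted p = 0.0277), beside 0.31 for SPON2 (adjusted p = 0.0011). Its call was lost with the batch block (adjusted p = 0.11) and without siCtrl replicate 1 or 2 or siCDO1A replicate 1 or 2, at adjusted p from 0.086 to 0.183. B3GALT5-AS1 fell from 5.37 to 3.44 CPM on average (-0.62, SE 0.179, adjusted p = 0.0218) beside -0.47 for B3GALT5 (adjusted p = 1.7e-04), and its call was lost without any 1 library but siCDO1A replicate 3, at adjusted p from 0.0501 to 0.0915. Its siCDO1A mean lay below the threshold of the rule, and the siCtrl level it fell from is also the level that chose it.

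In 2 pairs the genes moved apart with siCDO1A. AF106564.1 fell (-0.54, SE 0.17, adjusted p = 0.0357) while NEFM, a neurofilament gene, went from 8.14 to 14.3 CPM (0.83, adjusted p = 1.4e-04). AL357033.4 fell (-0.58, SE 0.171, adjusted p = 0.0249) while SLCO4A1, an anion transporter gene, went from 46.5 to 53.7 CPM (0.23, adjusted p = 0.0419). With the batch block neither antisense call held (adjusted p = 0.077 and 0.0522), nor did that of SLCO4A1 (0.14). The call of AF106564.1 was lost without any 1 library, at adjusted p from 0.0571 to 0.151, and that of AL357033.4 without siCtrl replicate 1 or 2 or siCDO1A replicate 1, at adjusted p from 0.0802 to 0.0918.

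A coding gene started on the other strand within 1000 bases of the start of 88 members, 29 lincRNAs and 59 antisense RNAs, and 86 such pairs were tested. With siCDO1A, 11 of these members and 17 of the coding genes were called, and with siCDO1C 5 and 5, where 14.9% and 4.77% of all genes were. MAFG-DT rose with siCDO1A (0.54, SE 0.118, adjusted p = 0.00383) beside -0.12 for MAFG (adjusted p = 0.272). On the other strand, the remaining 80 members had neither an overlapping coding gene nor one starting within this distance. Coding genes on the same strand were not considered.

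Genes of proteins that act with these RNAs were read from the same fits, which hold mRNA and not protein levels. Of the 4 members on a list of structural and scaffold RNAs (NEAT1, MALAT1, NORAD and KCNQ1OT1), NEAT1 was called with both siRNAs and the others with neither in the edgeR fits of all 6 libraries without the block. In these fits 14.9% of all genes were called with siCDO1A and 4.77% with siCDO1C. Of the mRNAs of 15 paraspeckle proteins, the partners of NEAT1, 6 rose with siCDO1A and 1 with siCDO1C, where 7.37% and 2.27% of all genes rose. The mRNA of PSPC1, a core protein of these bodies, rose with both (0.33, SE 0.0696, adjusted p = 0.00258, and 0.37, SE 0.0815, adjusted p = 0.0174). With the batch block, 1 of the 15 passed with siCDO1A. The median of the list was 0.13 and 0.10, beside 0.010 and -0.000 over all genes. Among 17 genes of nonsense-mediated decay, which removes many noncoding transcripts, CASC3 rose with both siRNAs (0.28 and 0.31, adjusted p = 0.00179 and 0.0229) and PNRC2 fell with siCDO1A (-0.24, adjusted p = 0.00335), beside 14.9% and 4.77% of all genes called. Among 23 genes of the nuclear exosome and its adaptors, 1 rose and 1 fell with siCDO1A, NCBP1 and NCBP2, where 14.9% of all genes passed in either direction, and neither passed with the batch block. None of the 23 passed with siCDO1C by edgeR.

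The sequence GCAGTACA, searched on the sense strand of GENCODE transcripts after earlier results of these data were known, was present in 12 of the 226 members with a transcript (5.31%), in 3.77% of the lincRNA and antisense genes tested and in 7.53% of all genes tested. A gene was counted when any of its transcripts held the match, so that genes with more annotated transcripts had more sequence searched. The match was in 2 of 12 transcripts of THAP9-AS1, 2 of 12 of LINC01089 and 3 of 13 of LINC00265. A match is a description of these letters only. Of the 12 members, THAP9-AS1 and LINC01089 rose and LINC00265 fell with siCDO1A, where 14.9% of all genes and 17% of members passed in either direction. Whether the match goes with a change was not tested. For these 3 members, 30 bases around the match are shown, with the match in capitals:
THAP9-AS1: aatttttcaggGCAGTACAtttttctcaag
LINC01089: tctgtcctgacGCAGTACAgttttgatgtt
LINC00265: tcactcaggctGCAGTACAgtggcacaacc

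LINC01089 was at 10.3, 12.1 and 9.89 CPM in siCtrl cells and at 11.3, 17.2 and 15.6 CPM with siCDO1A (0.48, SE 0.143, adjusted p = 0.0255), and LINC00265 at 14, 13 and 13 CPM and at 7.82, 8.59 and 11.3 CPM (-0.50, SE 0.135, adjusted p = 0.0155). With siCDO1C their values were 0.45 (adjusted p = 0.0626, and 0.0126 without siCDO1C replicate 2) and -0.40 (adjusted p = 0.173). The siCDO1A calls of both were lost without siCtrl replicate 1 or siCDO1A replicate 2, that of LINC01089 also without siCtrl replicate 3 and that of LINC00265 also without siCDO1A replicate 1, at adjusted p from 0.0611 to 0.177. The match was in 1 of the 5 members that rose with both siRNAs and in none of the 6 that fell with both.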

How the data were processed

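Per the labels and the methods, the authors purified poly(A) RNA, made directional dUTP libraries, aligned the reads (the submitters' processing notes name CASAVA, HISAT2 2.0.5 and hg38) and counted them per gene with featureCounts. The values deposited are whole-number counts without normalization. Strand and multiple-mapping settings are not given in the sources used here. A further 3 columns of the table could be assigned to none of the samples and were not used. All 129 members found in RefSeq for GRCh38.p14 overlapped its coordinates.

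Counts were fitted with the quasi-likelihood test of edgeR 4.0.16 in R 4.3.3 (TMM factors 0.990 to 1.010, filterByExpr with a minimum count of 10, robust dispersion) on the 6 libraries of each comparison. Adjustment was by Benjamini-Hochberg over 15555 genes, with a threshold of 0.05. DESeq2 1.42.0, RLE factors, library totals, other filters, 1 fit of all libraries, the batch block, an adjusted p of 0.01, other memberships and leaving out each library were alternatives. CPM used whole library totals, and SE was derived from the F statistic. The script was tested on simulated data.

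The members, lists and the sequence searched were chosen with earlier results of these data known. Named were the 10 most abundant members, members of the prostate and role lists, those called with both siRNAs, the 5 largest rises and falls called per comparison with siCtrl, those called between siRNAs, and 2 genes each side of the threshold. PAXIP1-AS1, MAFG-DT, B3GALT5-AS1, AF106564.1, AL357033.4, LINC01089, LINC00265 and all coding neighbours were chosen after their values were seen.

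The labels give each replicate number as a batch, which pairs the libraries across groups. Deviations from the group means, correlated over 11330 genes, gave Pearson values of -0.208, 0.0541 and -0.137 for number 1 (siCtrl with siCDO1A, siCtrl with siCDO1C, siCDO1A with siCDO1C), -0.0916, -0.00636 and 0.131 for number 2 and -0.385, -0.283 and 0.386 for number 3. The study's methods use no block, so the main fits have none. The floor of 3 counts covers counting error only, while SDs and SEs hold the spread between libraries, and 3 libraries against 3 cannot give an exact permutation p below 0.1. Some items are not reported here.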

Additional observations from a re-analysis of the deposited data

Results flagged for a closer look

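NKILA was the 1 member whose effects with siCDO1A and siCDO1C differed by a test of the difference itself. Its log2 difference of siCDO1C from siCDO1A was -0.90 (SE 0.165, edgeR adjusted p = 0.0159), with 13.1 ± 1 CPM in siCDO1A and 7.18 ± 1.78 CPM in siCDO1C cells (SD, n = 3 each) and no overlap between their libraries. Over the alternatives that kept all 6 libraries, the batch block gave an adjusted p of 0.00316, DESeq2 9.3e-04 and 1 fit of all 9 libraries 0.00525. Leaving out 1 library gave log2 differences from -1.11 to -0.77, with adjusted p from 0.0712 to 0.157 without siCDO1C replicate 1 or any 1 siCDO1A replicate.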

How the results depend on the processing

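The 39, 14, 1 and 11 members called with siCDO1A, with siCDO1C, between the siRNAs and with both became 17, 6, 0 and 5 at an adjusted p of 0.01, and among members at 10 CPM or more they were 25, 9 and 0 for the comparisons. Between the siRNAs, 2 were called with no filter on low counts and 2 with the batch block. Leaving out 1 library gave 22 to 49 calls with siCDO1A, 5 to 33 with siCDO1C, 0 to 6 between the siRNAs and 4 to 18 with both. With siCDO1A there were 24 without siCtrl replicate 1 or 2 and 22 without siCDO1A replicate 2. With siCDO1C there were 5 without siCtrl replicate 1 or 3, 8 without siCtrl replicate 2 and 33 without siCDO1C replicate 2. Between the siRNAs there were 0 without any 1 siCDO1A replicate or siCDO1C replicate 1, and 6 without siCDO1C replicate 2. With both there were 5 and 4 without siCtrl replicate 1 and 3, and 18 without siCDO1C replicate 2. DESeq2 gave 32, 15, 1 and 11. Shares over all genes at these settings are not given here, so that the counts cannot tell a shift of the members from one of the whole table. The cause of these shifts was not tested.

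With the batch number as a replicate block, 30 members were called with siCDO1A and 14 with siCDO1C, and 10 with both. Over all genes, the block moved the calls with siCDO1A from 2310 to 1358, and between the siRNAs from 69 to 121. It removed 10 of the 39 siCDO1A calls and added MALAT1, exchanged BAIAP2-DT for RAET1E-AS1 with siCDO1C, added SNHG8 between the siRNAs and changed no other call of a member. For the named members, 362 of 416 alternative values of called results stayed past the threshold in the same direction, 54 did not pass and 0 reversed, while 21 of 1573 alternative values of results that were not called passed. The share of counts held by members was 0.74%, 0.746% and 0.75% of protein-coding counts. At 5 to 10 CPM, a median SE of 0.157 limits what can be called.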
